A study of Mus musculus with 6 samples.

Results

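The cadherin superfamily was described in the retina of mice at postnatal day 4 (P4), as the probe sets whose gene symbol is that of a numbered cadherin (Cdh), a cadherin-related gene (Cdhr), a protocadherin (Pcdh) or a Celsr gene. Of 22626 probe sets other than controls, 71 met this rule. Of these, 65 were paired with 1 symbol and named 52 of the 12393 genes of the array, and the other 6 were paired with several symbols of the alpha protocadherin cluster. The members were chosen by name and not by their signal. They do not cover the whole family. No member probe set was named for the gamma protocadherin cluster, for Pcdh9, Pcdh11x, Pcdh17 or Pcdh19, or for several type II cadherins. Statements on a class below cover its measured genes only.

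Total RNA from whole, snap-frozen retinas of 6 mice was hybridised to 1 Affymetrix mouse expression array each, which reads each transcript through sets of short probes. There were 3 wildtype mice and 3 knockouts of Nhlh2, a neuronal transcription factor of the basic helix-loop-helix class, and the series design makes mice with the same replicate number littermates. All 6 were labelled as of mixed C57/129 background and P4 age, with no treatment beyond freezing. The knockout allele, and whether it acts in all cells, are not given in the sources used here, and no probe set was paired with Nhlh2, so the targeted gene itself was not checked.

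Cadherins are calcium-dependent adhesion proteins of the cell surface. Classical cadherins bind the same or a related cadherin on the neighbouring cell and hold the actin skeleton through beta-catenin and alpha-catenin. The clustered protocadherins are chosen in different combinations by single neurons and serve self-recognition of their dendrites, while the delta protocadherins, the Celsr proteins of planar polarity and Cdhr1 of the photoreceptor outer segment have more particular roles.

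Signals are given after quantile normalisation, which gives the arrays a common distribution with a median of 68.0, and a percentile is the place of a signal among all probe sets of its array. Knockout replicate 2 stood apart from the other arrays. Its Actb signal at the 3' end was 274 times that at the 5' end, against 1.38 to 1.56 in the other 5, its deposited median was 9.0 against 51.3 to 95.5, and its rank correlation with any other array was at most 0.669 against at least 0.947 among the 5. It was left out of the fitted comparison, and its values are given as those of the 2nd littermate pair. Signals of different probe sets are not ordered as transcript amounts, since probes differ in affinity.

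Markers of rods, amacrine and horizontal cells, ganglion cells and Mueller glia were above the median of every wildtype array for all measured members of their lists. Progenitor markers were above it for 3 of 4 genes. Pigment epithelium markers were above it for 5 of 6, the exception being Rpe65. Of the 7 lens markers, 0 were above it in every wildtype array, but wildtype replicate 1 alone had a summed lens signal of 7747, against 70.9 to 338 in the other 5 arrays. RNA of whole tissue was measured throughout, so that fewer cells of a type and less RNA per cell cannot be told apart.

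Sequence before the transcription start is shown for the photoreceptor gene Cdhr1 and the delta-2 protocadherin Pcdh8, the members of their classes with the highest wildtype signal. Of the 52 member genes, 18 had an entry in the RefSeq promoter table of GRCm38.p6. Factors of the Nhlh2 class are known to bind E-boxes, here searched as CANNTG, which reads the same on both strands. TATAAA was searched on both strands. The Cdhr1 window, chr14:37098348-37098597 on the minus strand, held 1 E-box, CACCTG, 119 bases before the start, and the Pcdh8 window, chr14:79771313-79771562 on the minus strand, held none but had TATAAA 30 bases before the start. These matches are printed in capitals, 5′ to 3′.
Cdhr1: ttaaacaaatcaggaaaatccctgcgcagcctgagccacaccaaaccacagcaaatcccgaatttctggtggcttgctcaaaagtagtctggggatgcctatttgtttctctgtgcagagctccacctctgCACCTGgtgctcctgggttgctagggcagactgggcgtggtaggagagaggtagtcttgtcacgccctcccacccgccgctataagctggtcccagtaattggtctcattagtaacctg
Pcdh8: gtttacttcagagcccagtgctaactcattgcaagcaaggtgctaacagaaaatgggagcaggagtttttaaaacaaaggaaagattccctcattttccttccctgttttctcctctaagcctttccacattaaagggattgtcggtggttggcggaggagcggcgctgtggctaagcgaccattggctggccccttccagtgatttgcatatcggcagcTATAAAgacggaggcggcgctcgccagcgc
An E-box was present in 66.2% of 32851 promoter windows of the same length, 250 bases, and TATAAA in 12.4%, so that both matches describe the letters of these windows and nothing more. The Cdhr1 window had 6 CpG dinucleotides and the Pcdh8 window 11, against a median of 6 over all windows. Celsr2 and Celsr3, also above the median of every wildtype array, had windows that are not printed, with 3 and 0 E-boxes.

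In the wildtype P4 retina, most cadherin superfamily genes gave little signal, and a few gave very strong signals. Of the 52 genes, 11 (21.2%) were above the median of all 3 wildtype arrays, 5 were above it in 1 or 2 arrays, and 36 in none, while 51.3% of all 12393 genes were above it in all 3. In wildtype replicates 1, 2 and 3 the median member gene stood at percentiles 36.6, 37.1 and 33.5, and the median over all genes lay at 55.1, 54.4 and 56.1. These counts describe the probe sets of this array and were not tested.

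Classical cadherins and protocadherins were then counted apart. Of 13 classical cadherin genes, 3 (23.1%) were above the median of every wildtype array, and of 30 protocadherin genes with a symbol of their own 5 (16.7%) were. The median classical gene stood at percentiles 39.4, 36.4 and 37.4, and the median protocadherin gene at 35.3, 37.6 and 33.0, so that the order of the classes was not the same in the 3 arrays. At the top of each class, Cdh2 stood at percentiles 97.4 to 98.0 and Cdh11 at 93.1 to 93.3, and Pcdhb17, the protocadherin gene with the highest mean, at 74.4 to 78.5. As these are different probe sets, the values are a description and no difference between the classes was tested. With the 75th percentile in place of the median, the 3 genes that remained were all outside the protocadherins. These gene counts leave out probe sets paired with several symbols. Of those, alpha cluster probe set 1420798_s_at stood above the 75th percentile too, at 80.4, 78.8 and 83.3 in wildtype replicates 1, 2 and 3.

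**Figure D1:**
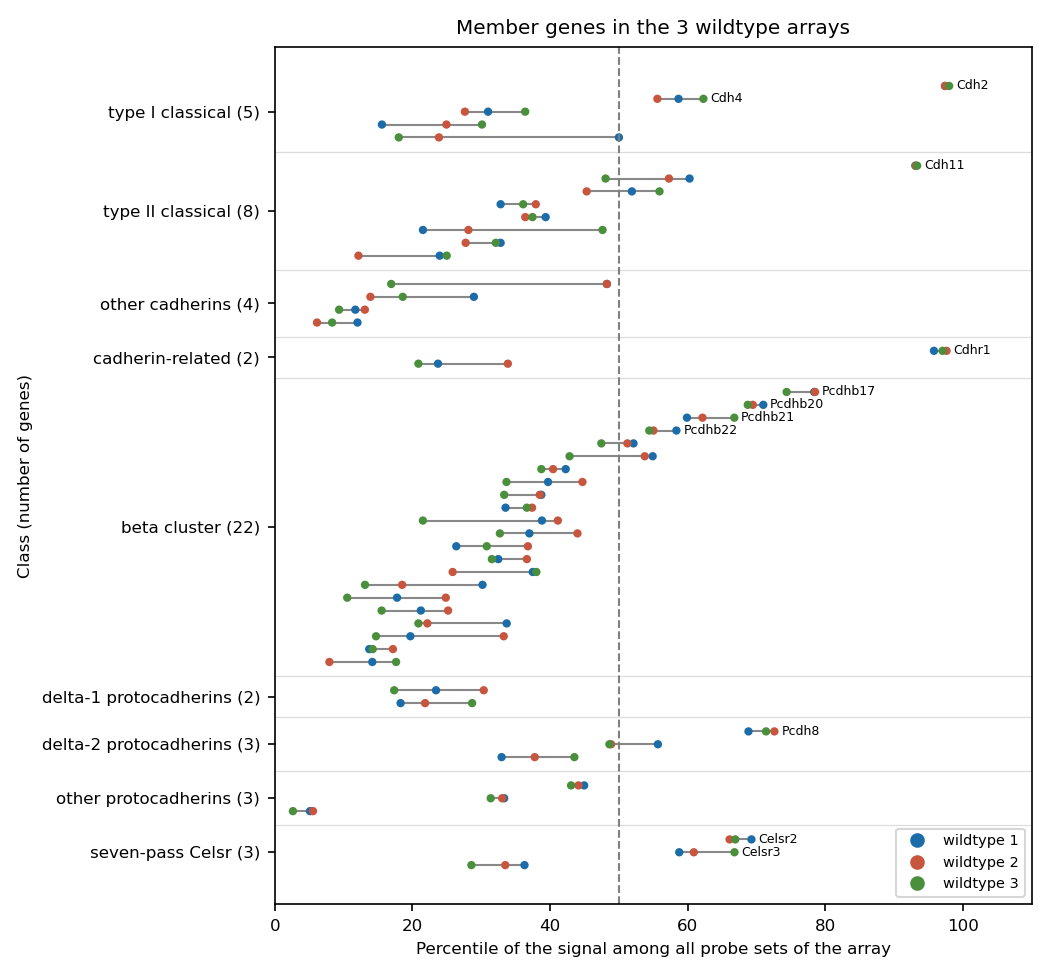
Percentile of each of the 52 member genes among all probe sets of the array, by class, with 1 point for each of the 3 wildtype arrays and a line over their range (dashed line, 50th percentile). Of the 52 genes, 36 lie left of the line in all 3 arrays, and Cdh2, Cdh11 and Cdhr1 lie far right of all others.

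Cdh2, N-cadherin, which joins the neuroepithelium and later neurons and glia, had the highest mean signal of the 52 genes. Its probe set 1418815_at gave 1901, 1918 and 2292 in wildtype replicates 1, 2 and 3 (2037 ± 221, SD, n = 3), at the 97.4th to 98.0th percentile. A second Cdh2 probe set, 1449244_at, gave 632, 479 and 393. Both were far above the median of every array, but their order over the arrays was opposite, the first being highest and the second lowest in wildtype replicate 3.

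Cdh4, R-cadherin, a close relative of Cdh2 named for the retina, was the other type I gene above the median of every wildtype array, with signals of 108.3, 92.7 and 130.5 (110.5 ± 19.0, SD, n = 3). Its other probe set, 1449637_at, was at the floor with 0.418 to 2.71. The type I genes of other tissues were low. Cdh3, P-cadherin, had 6.29 to 20.5, and Cdh15, the cadherin of muscle, had 17.6 to 29.9. Cdh1, E-cadherin of epithelia, came close to the median in wildtype replicate 1 alone and is described with the lens markers.

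Among the 8 type II cadherins, Cdh11 stood out. Cdh11, known from mesenchyme and from progenitors and glia of the nervous system, had signals of 908, 915 and 939 (920.5 ± 16.3, SD, n = 3). Its SD on the log2 scale, 0.03, was small beside the median of 0.20 over all genes above the median of every wildtype array. The next were Cdh20, with 118, 101 and 61.0, and Cdh22, with 75.8, 51.7 and 94.1, which were above the median in 2 arrays each. Type II cadherins that mark subsets of retinal neurons and circuits were below the median in every wildtype array. Cdh6 gave 29.9 to 36.0, Cdh8 17.7 to 24.1, Cdh10 24.1 to 32.9 and Cdh9 3.96 to 14.8.

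Of the cadherin-related and other cadherin genes, 6 in all, Cdhr1 alone was above the median of every wildtype array. Cdhr1, also called photoreceptor cadherin, lies at the base of the rod and cone outer segment and is mutated in inherited retinal degeneration. Its signals were 1328, 2043 and 1733 (1701 ± 358, SD, n = 3), lowest in wildtype replicate 1. The rod genes Nrl and Rcvrn were lowest in that array too, with 4511 against 5594 and 5827, and 184 against 332.5 and 596, while Crx, with 3215, 3265 and 2889, was not; their part in the Cdhr1 values was not tested. Cdh23 and Pcdh15, which form the tip link of hair cells and are mutated in Usher syndrome, had 4.98 to 19.0 and 45.2 to 50.6, below the median in every wildtype array. Cdh16 and Cdh17, cadherins of kidney and gut, were at the floor, with at most 4.48 and 3.86.

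The beta cluster was the largest class, with 22 genes measured one by one. Of these, 4 (18.2%) were above the median of every wildtype array, 2 in some arrays and 16 in none. Pcdhb17 had 293, 295 and 239 (276 ± 32.0, SD, n = 3) and Pcdhb20 had 201, 186 and 179.8 (189 ± 10.9, SD, n = 3). Pcdhb21 followed with 115, 129.6 and 164 (136 ± 24.8, SD, n = 3), and Pcdhb22 with 107, 89.9 and 86.9 (94.5 ± 10.7, SD, n = 3). The SD of these 4 genes on the log2 scale was 0.08 to 0.26, highest for Pcdhb21. Pcdhb3, with 89.4, 84.0 and 44.6, and Pcdhb7, with 76.8, 72.9 and 58.8, were above the median in wildtype replicates 1 and 2 and below it in replicate 3. Pcdhb14, with 2.25 to 8.02, and Pcdhb1, with 4.86 to 7.65, were lowest.

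The alpha cluster was measured by 6 probe sets that cannot be assigned to single genes, since its transcripts share their last exons. Probe set 1420798_s_at gave 327, 301 and 391, and 1424341_s_at gave 140.4, 137 and 106, both above the median of every wildtype array. Probe set 1451769_s_at gave 70.8, 39.4 and 43.7, and the other 3 gave 1.23 to 16.1. The signal of the cluster thus depended on the probe set that read it.

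Of the delta protocadherins that were measured, Pcdh8 was the one above the median of every wildtype array. Delta protocadherins have longer conserved cytoplasmic tails than the clustered ones. Pcdh8, an activity-regulated protocadherin that acts on the endocytosis of N-cadherin, had 181, 218 and 205 (201 ± 19.1, SD, n = 3). Pcdh18 was above it in replicate 1 alone, with 93.0, 63.9 and 63.0, and its other probe sets were lower, with 23.7 to 31.8 and 1.15 to 12.9. Pcdh10 gave 24.3, 32.6 and 46.4, Pcdh7 7.77 to 20.8 and Pcdh1 8.60 to 18.7. Pcdh12, a protocadherin of blood vessels, had the lowest mean of the 52 genes, with signals of 0.972 to 1.58.

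The Celsr genes, mammalian homologues of flamingo, act in planar polarity and in the growth of axons and dendrites. Celsr2 had 184.5, 158 and 165 (169 ± 13.8, SD, n = 3) and Celsr3 had 109, 121.5 and 164 (131 ± 28.7, SD, n = 3), both above the median of every wildtype array. Celsr1 had 18.6 to 29.7 and was below it in each. The second Celsr2 probe set, 1422073_a_at, gave 45.7, 54.3 and 77.8, above the median in replicate 3 alone.

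**Figure D2:**
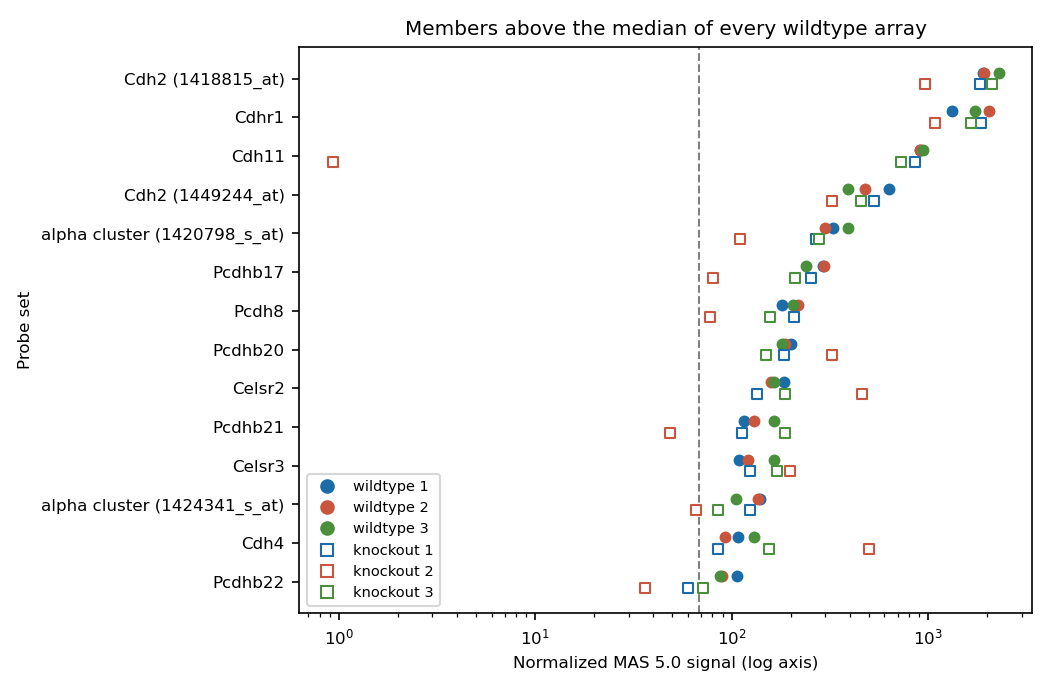
Normalised signal (log axis) of the 14 probe sets of members above the median of every wildtype array (filled circles, wildtype; open squares, knockout; colour, replicate number; dashed line, median signal of 68.0). Knockout replicate 2 lies far from the other arrays in many rows, lowest for Cdh11 at 0.931. The other arrays differ among themselves as well, with 60.3 to 107 for Pcdhb22 and 85.1 to 156 for Cdh4.

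Genes for the proteins that cadherins work with were mostly above the median, as were 51.3% of all genes in all 3 wildtype arrays. Of 23 genes measured from a list of catenins and linkers, processing enzymes, planar polarity proteins, delta protocadherin partners and regulators of the clusters, 17 were above the median of every wildtype array. Ctnnb1, beta-catenin, gave 5564, 5692 and 4310, and Ctnna1, alpha-E-catenin, gave 1322, 1146 and 778. Adam10, the protease that sheds N-cadherin, gave 822, 796 and 740, and Nckap1, a subunit of the WAVE complex that delta protocadherins bind, gave 1698, 1388 and 1126. Ctcf, which with cohesin brings enhancers to the clustered promoters, gave 788, 753.5 and 582. Of the planar polarity genes, 3 of 8 were above the median of every wildtype array, among them Vangl2, with 93.1, 89.8 and 98.3.

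Members that are known from tissues beside the neural retina were set against the markers of those tissues. Cdh1 gave 68.0 in wildtype replicate 1, against 13.6 and 8.38 in the other wildtype arrays and 6.55, 30.7 and 7.67 in knockout replicates 1, 2 and 3. The summed signal of the 7 lens markers was highest in the same array, at 7747, against 70.9 and 100.4 in wildtype replicates 2 and 3. Cryaa, the alpha-A-crystallin, gave 2539 there and 1.58 to 23.5 in the other 5. The pigment epithelium sum was highest in wildtype replicate 1 too, at 1755. It was 1350 and 1065 in wildtype replicates 2 and 3, and 1173, 1081 and 1467 in knockout replicates 1, 2 and 3. The surface epithelium list of Krt5, Krt12, Krt14 and Epcam did not stand apart in that array, with sums of 62.2, 49.9 and 43.7 in the wildtype arrays and Epcam at 3.11 in replicate 1. The part of lens or other epithelium in the Cdh1 signal was not tested.

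Cdh5, VE-cadherin of endothelium, gave 11.4, 18.1 and 59.5 with its stronger probe set in the wildtype arrays, and 13.5, 6.40 and 10.1 with the other, 1422047_at. The arrays' order by the stronger probe set was opposite to that by the summed signal of 6 endothelium markers, which was 1145, 924 and 784. In this list Pecam1, Tek, Flt1 and Tie1 were below the median in every wildtype array, and Kdr, which retinal progenitors are known to express as well, made up most of the sum with 910, 674 and 566.

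**Figure D3:**
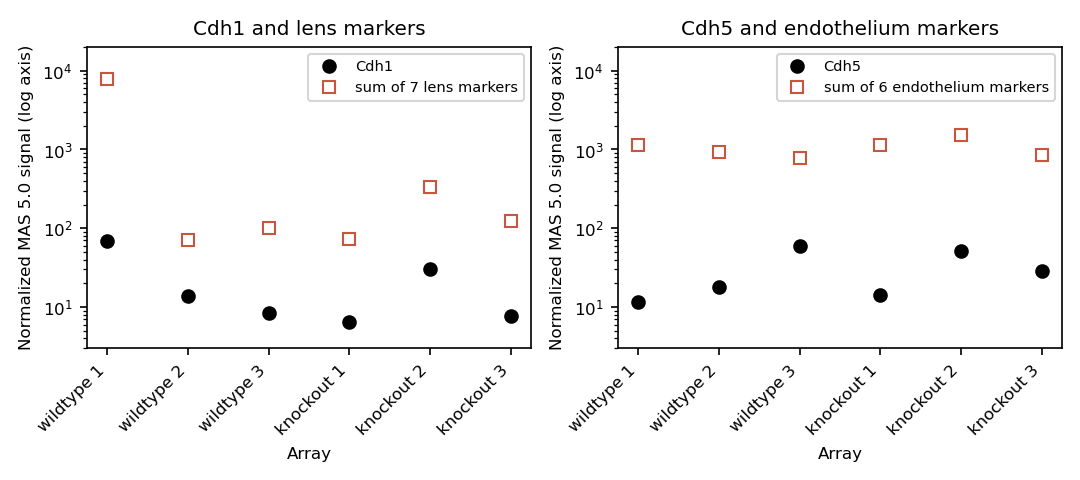
Normalised signal (log axis) of Cdh1 with the sum of 7 lens markers (left) and of Cdh5 with the sum of 6 endothelium markers (right) in the 6 arrays. Cdh1 and the lens sum are both highest in wildtype replicate 1, and Cdh5 is highest in wildtype replicate 3, where the endothelium sum is lowest.

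Loss of Nhlh2 was examined next, with the 3 wildtype arrays against knockout replicates 1 and 3. Of the 71 member probe sets, 17 passed the filter on low signal, a mean over these 5 arrays above the median of such means. They stood for 14 genes with a symbol of their own and for 2 alpha cluster probe sets. In the limma fit 0 of the 17 had an adjusted p under 0.05, as did 0 of all 11313 tested probe sets (percentage called, 0), and the lowest adjusted p was 0.99995. At an unadjusted p under 0.05 there was 1 member, Pcdhb22, against 93 of all probe sets (0.822%). With the littermate pair as a block the member count was 1 as well, while the count over all probe sets was 403. In these 5 arrays wildtype replicate 2 has no littermate, so the blocked difference rests on pairs 1 and 3 alone.

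The 95% interval of the difference held 0 for all tested members but Pcdhb22. The median log2 difference, knockout minus wildtype, was -0.08 over the 17 members and 0.01 over all tested probe sets, with a range of -0.52 to 0.17 in the members. Of the 17, 12 had a negative and 5 a positive difference. The 95% intervals reached 0.41 to 0.88 to either side with 3 and 2 arrays. By class, the median was -0.04 over 5 classical probe sets, -0.19 over 9 protocadherin probe sets and 0.07 over the 3 others. The difference between the classes was not tested.

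Pcdhb22 had the largest difference. Its signals were 107, 89.9 and 86.9 in wildtype and 60.3 and 71.2 in knockout replicates 1 and 3, and the groups did not overlap. The log2 difference was -0.52 (95% interval -0.98 to -0.06, unadjusted p of 0.0328 and adjusted p of 0.99995 by limma). The difference kept its direction with any 1 of the 5 arrays left out, at -0.63 to -0.40. The unadjusted p was 0.109 without wildtype replicate 1 (difference -0.43), 0.0729 without wildtype replicate 2 (-0.55) and 0.161 without knockout replicate 1 (-0.40), each with 1 array fewer. Genes of the beta cluster are close relatives in sequence, and binding of a relative's RNA to this probe set was not tested.

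Groups that did not overlap, with the knockout lower, were seen in 3 of the 17 members, against 5.3% of all tested probe sets. Beside Pcdhb22 these were Cdh11 and the alpha cluster probe set 1420798_s_at. Cdh11 gave 908, 915 and 939 in wildtype and 856 and 732.5 in knockout replicates 1 and 3, a log2 difference of -0.22 (95% interval -0.63 to 0.20). The alpha probe set gave 327, 301 and 391 in wildtype and 269.6 and 279.5 in these knockouts, a log2 difference of -0.30 (95% interval -0.75 to 0.16). In both, the gap between the groups was narrow and neither interval left out 0. Without knockout replicate 3 the Cdh11 difference was -0.10, and without wildtype replicate 3 that of the alpha probe set was -0.19. With the knockout higher there were 0 such members, against 5.85% of all tested probe sets.

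The other protocadherins with the largest negative differences overlapped between the groups. The alpha cluster probe set 1424341_s_at gave 124 and 85.1 in knockout replicates 1 and 3, a log2 difference of -0.30 (95% interval -0.88 to 0.28). Pcdhb17 gave 254 and 210.3 in knockout replicates 1 and 3, a log2 difference of -0.25 (95% interval -0.72 to 0.23). Pcdhb20 gave 184 and 149.5, a log2 difference of -0.19 (95% interval -0.63 to 0.26). Pcdh8 gave 208 and 156, a log2 difference of -0.15 (95% interval -0.65 to 0.34). In Pcdhb17, Pcdhb20 and Pcdh8 alike, knockout replicate 3 lay below every wildtype array and replicate 1 within the wildtype range. Without knockout replicate 3 the differences were -0.030 for the alpha probe set, -0.11 for Pcdhb17, -0.037 for Pcdhb20 and 0.050 for Pcdh8.

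On the positive side, Celsr3 gave 124 and 171 in knockout replicates 1 and 3, a log2 difference of 0.17 (95% interval -0.44 to 0.78), and Pcdhb21 gave 112 and 188, a difference of 0.11 (95% interval -0.57 to 0.79). Cdh4, with 85.1 and 156, and Cdhr1, with 1866 and 1659, both had a difference of 0.07, with intervals of -0.65 to 0.80 and of -0.49 to 0.63. Cdh2 was nearly level. Probe set 1418815_at gave 1836 and 2126 and a difference of -0.04 (95% interval -0.49 to 0.41), and 1449244_at gave 534 and 456 and a difference of 0.00 (95% interval -0.59 to 0.60). All positive differences changed sign in at least 1 alternative setting, as given in the closing section.

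By littermate pair, the members lay lower in pair 1 and nearly level in pair 3. In pair 1, 14 of the 17 were lower in the knockout and 3 higher, with a median log2 difference of -0.17 against 0.01 over all tested probe sets. In pair 3, 9 were lower and 8 higher, with a median of -0.06 against 0.00. Of the 17, 7 (41.2%) were lower in the knockout of both pairs, against 23.0% of all tested probe sets, and 1 (5.88%), Celsr3, was higher in both, against 24.9%. These pairs share no array, but the shares describe 2 pairs and were not tested. In pair 1 the summed marker signal was lower in the knockout for most lists. Lens had 7747 in wildtype and 73.7 in knockout, pigment epithelium 1755 and 1173, and mural cells 532 and 282. The sum was higher in the knockout for rods, with 7909 and 8529, Mueller glia, with 4429 and 4477, and endothelium, with 1145 and 1147. In pair 3 the lens sums were 100.4 and 124, those of pigment epithelium 1065 and 1467, and those of mural cells 452 and 359.8. Progenitors had 4866 in wildtype and 6359 in knockout there, and Mueller glia 4084 and 5115. Among the marker lists, the sum was lower in the knockout of pair 3 for rods, ganglion cells and mural cells alone. The part of these cell types in the members' values was not tested.

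The pairs compared as follows in the 2 classes, without a test of the difference. In pair 1 all 5 tested classical probe sets were lower in the knockout, with a median of -0.09, whereas in pair 3 3 were higher and 2 lower, with a median of 0.10. The protocadherins had medians of -0.18 and -0.26 in pairs 1 and 3. Of their 9 probe sets, 5 (55.6%) were lower in both, against 23.0% of all tested probe sets. Those 5 were Pcdhb17, with -0.21 and -0.18, Pcdhb20, with -0.13 and -0.26, Pcdhb22, with -0.81 and -0.29, and both tested alpha cluster probe sets, with -0.28 and -0.48 for 1420798_s_at and -0.18 and -0.31 for 1424341_s_at. These alpha cluster probe sets read the same cluster and do not stand for separate genes. Of the classical probe sets, Cdh11, with -0.09 and -0.36, and Cdh2 probe set 1418815_at, with -0.05 and -0.11, were lower in both.

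Several members went opposite ways in these pairs. Cdhr1 had 0.49 in pair 1 and -0.06 in pair 3, Pcdh8 had 0.20 and -0.39, and Pcdh18 had -0.75 and 0.32. Cdh4 had -0.34 and 0.25, and Celsr2 had -0.44 and 0.19. Pcdhb7 had -0.17 and 0.19, Pcdhb21 -0.04 and 0.20, Cdh20 -0.02 and 0.10, and Cdh2 probe set 1449244_at -0.24 and 0.21. In Cdhr1, Pcdh18, Cdh4 and Celsr2 the value from pair 1 was the larger in size. There wildtype replicate 1 was the lowest wildtype array for Cdhr1, the highest for Pcdh18 and Celsr2, and between the others for Cdh4.

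**Figure D4:**
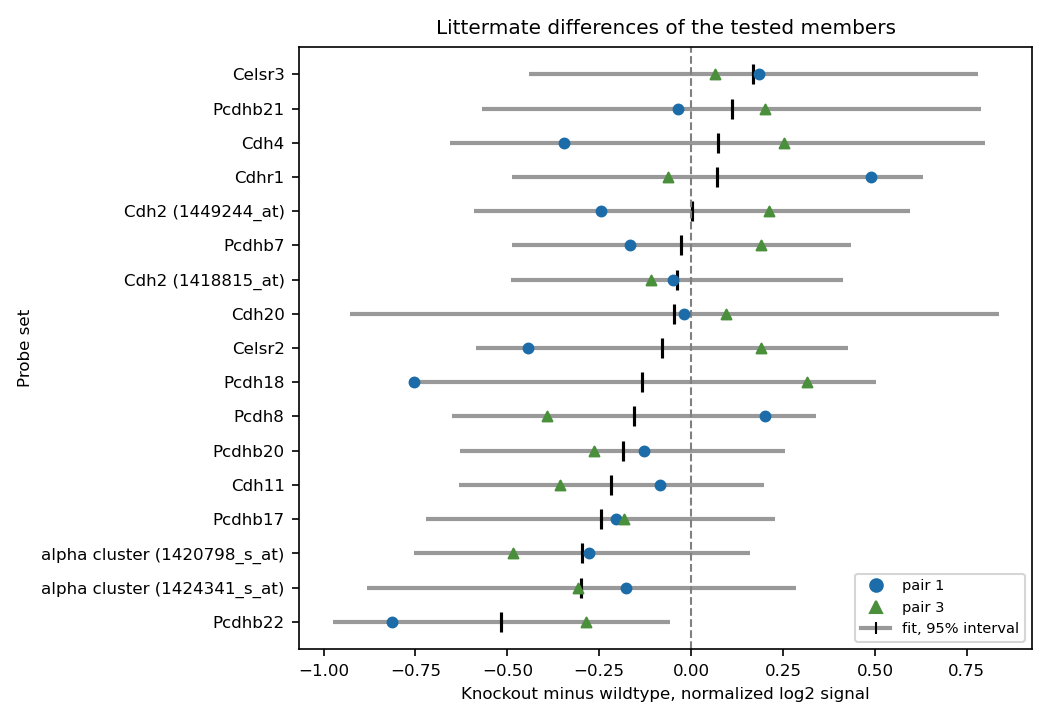
Knockout minus wildtype of the normalised log2 signal for the 17 tested member probe sets, in littermate pair 1 (circles) and pair 3 (triangles), with the fitted difference of 3 wildtype and 2 knockout arrays (bar) and its 95% interval (grey line). Every interval but that of Pcdhb22 spans 0.

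In pair 2, the differences were of another order. The median member was at -0.99, against -0.37 over all tested probe sets, and single members ran from -8.89 for Cdh11 to 2.43 for Cdh4. The median size of the difference, without its sign, was 1.28 in the members and 1.27 over all tested probe sets in pair 2, against 0.20 and 0.14 in pair 1 and 0.21 and 0.22 in pair 3. Cdh11 was at 0.931 in knockout replicate 2, against 732.5 to 939 in the other 5 arrays, while Celsr2, at 459, Cdh4, at 502, and Cdh22, at 485, were far above the range of the other arrays. This array had the high Actb ratio given above, and the part of RNA quality in these values was not tested.

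The partner genes gave no call in the knockout either. Of 18 tested, 0 passed an adjusted p under 0.05 in either direction and 0 an unadjusted p under 0.05, with a median log2 difference of -0.06 and a range from -0.35 for Prickle1, a planar polarity protein, to 0.28 for Ctnnd2, delta-catenin of neurons. Ctnnb1 gave 5868 and 3902 in knockout replicates 1 and 3, a difference of -0.11 (95% interval -0.71 to 0.49). Ctcf gave 683 and 505, a difference of -0.26 (95% interval -0.81 to 0.30). Of 31 marker genes tested, 1 had an unadjusted p under 0.05, against 0.822% of all probe sets. This was Rgs5, of the mural cells of vessels, with 338, 237 and 285 in wildtype and 186 and 182 in these knockouts (log2 difference -0.62, unadjusted p of 0.0228 by limma). The other mural markers did not go one way, Acta2 having -1.16 in pair 1 and 0.06 in pair 3 and Pdgfrb -0.74 and 0.16.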

How the data were processed

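Retinal RNA of 3 wildtype and 3 Nhlh2 knockout mice was measured on Affymetrix mouse expression arrays. The authors deposited, from MAS 5, 1 linear intensity per probe set and array, not scaled to a common level (trimmed means, 2% trimmed, of 25.2 to 267). Background correction, mismatch correction and any scaling target beyond this are not given in the sources used here. Arrays have no read depth, so their number limits the precision.

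Groups and littermate pairs came from the labels. Gene symbols came from the platform annotation, in which 20380 probe sets had 1 symbol, 691 several and 1555 none. Intensities plus a pseudocount of 1 were taken to log2, the arrays other than knockout replicate 2 were quantile normalised, and knockout replicate 2 was mapped to their distribution. The 11313 probe sets with a mean above the median of means were fitted with limma 3.58.1 (R 4.3.3, lmFit and eBayes), with Benjamini-Hochberg adjustment over all of them. A gene with several probe sets was represented by the one with the highest mean, of any suffix. The fit was also run on simulated data with independent noise in each probe set. Differences shared by many probe sets of an array were not simulated, so that run cannot speak for them. Genes named were members above the median of every wildtype array, members with an unadjusted p under 0.05, the 5 largest differences in each direction, genes whose probe sets disagreed, and 1 or 2 low members of each class. Others were named after their values were seen.

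The pairing comes from the series design, which calls same-numbered mice littermates. Deviations from the group means correlated with r of 0.25, -0.17 and 0.10 in pairs 1, 2 and 3. For arrays that are not littermates, r was 0.35 between wildtype replicate 2 and knockout replicate 1. It was -0.40 between wildtype replicate 3 and knockout replicate 1. The knockout mean included replicate 2, the array left out of the fit, so its values enter every knockout deviation. These correlations therefore cannot decide on the pairing. Alternatives were other scalings, filters and constants, an intensity trend, all 6 arrays with and without array weights, the pair as a block, and leaving out each array. The fit of all 6 arrays with the block was added after seeing the data. Members, classes and gene lists were chosen with earlier results of these data known. P-values set each group difference against the spread between arrays of the same group, with 1 array per mouse. This spread holds differences between mice, sample handling and measurement alike.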

Additional observations from a re-analysis of the deposited data

How the results depend on the processing

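No probe set passed an adjusted p under 0.05 in any setting, the lowest adjusted p being 0.208 without the filter on low signal. Counts at an unadjusted p under 0.05 did move. Over all probe sets, 93 became 15 with all 6 arrays, 1693 with array weights, whose estimation stopped before it converged, 817 without the filter, and 36 to 462 when 1 array was left out (36 without wildtype replicate 2, 462 without knockout replicate 1). With the littermate pair as a replicate block it was 403, and 14 with the block and all 6 arrays. Over the members, 1 became 0 with all 6 arrays, with the block and all 6 arrays, and with an intensity trend, 4 with array weights (Pcdhb22, Pcdhb17, the second Celsr2 probe set and an alpha cluster probe set), 3 without the filter (Pcdhb1, Pcdhb5 and a weak alpha cluster probe set), and 0 to 1 when 1 array was left out. The cause was not tested. The members' median difference less that of all tested probe sets, -0.09, ranged from -0.18 to -0.091 when 1 array was left out, -0.18 being without wildtype replicate 3.

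Over the alternatives, 222 log2 differences of the 17 tested member probe sets kept their direction and their side of the threshold, and 44 changed sign. None of them passed an adjusted p under 0.05. Part of the 222 was fixed by construction, since other filters and the intensity trend cannot change a log2 difference. The block also repeated the differences found without wildtype replicate 2 in the 5 arrays, and those without a block in all 6. The tally is thus no measure of how firm the directions are. With all 6 arrays, with or without the block, Pcdhb20 had 0.13, Celsr2 0.43, Pcdhb7 0.019, Pcdhb21 -0.41, Cdhr1 -0.16 and Cdh2 probe set 1449244_at -0.20. With array weights, Celsr2 had 0.089, Cdhr1 -0.034, Cdh2 probe set 1418815_at 0.078 and 1449244_at -0.15. With signals as deposited, Celsr3 had -0.13, Pcdhb21 -0.19, Cdh4 -0.22, Cdhr1 -0.19 and 1449244_at -0.26, but there the median of all tested probe sets was itself at -0.27. With the pair as a block in the 5 arrays, Cdh4 had -0.046, 1449244_at -0.017, Pcdhb7 0.012 and Cdh20 0.038, and the block changed no other direction of a member.

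When 1 array was left out, the differences of members that changed sign ran from -0.36 to 0.050 for Pcdh8, -0.23 to 0.13 for Pcdh18, -0.32 to 0.16 for Celsr2, -0.46 to 0.37 for Cdh20, -0.14 to 0.067 for 1418815_at, -0.14 to 0.012 for Pcdhb7, -0.062 to 0.40 for Celsr3, -0.26 to 0.48 for Pcdhb21, -0.36 to 0.50 for Cdh4, -0.097 to 0.21 for Cdhr1 and -0.16 to 0.18 for 1449244_at. Those that kept their sign ran from -0.63 to -0.40 for Pcdhb22, -0.57 to -0.030 for alpha cluster probe set 1424341_s_at, -0.38 to -0.19 for 1420798_s_at, -0.38 to -0.11 for Pcdhb17, -0.33 to -0.10 for Cdh11 and -0.33 to -0.037 for Pcdhb20. Without knockout replicate 3, 1424341_s_at, Pcdhb17, Cdh11 and Pcdhb20 were nearest to 0. The Pcdh18 range lacks the fits without wildtype replicate 1 and without knockout replicate 3, where its mean fell below the filter.

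Of the wildtype counts, 11 member genes above the median of every array became 32 with the 25th percentile and 3 with the 75th, 3 classical genes became 9 with the 25th, and 5 protocadherin genes became 19 with the 25th and 0 with the 75th. These counts follow from the threshold's own construction and leave out the alpha cluster probe sets.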

Other observations

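Genes with several probe sets showed how far a signal depends on the probes. Of the 52 member genes, 11 had more than 1 probe set. For Cdh2 both were above the median of every wildtype array, for Cdh4 and Celsr2 1 was, and for the other genes none was. Cdh13, T-cadherin, had 61.6, 61.7 and 7.41 in the wildtype arrays with probe set 1423551_at, 17.4, 19.6 and 11.9 with 1454015_a_at, and at most 3.42 with 1431824_at. Pcdh10 had 24.3, 32.6 and 46.4 with 1421311_at and 40.7, 34.8 and 24.7 with 1425563_s_at, so that the 3 wildtype arrays were in opposite order.

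Cdh22, a type II cadherin of the brain, had 37.1 and 70.5 in knockout replicates 1 and 3, against 75.8, 51.7 and 94.1 in wildtype, and was not tested, as its mean was below the filter. Cdh3, known from pigment epithelium, had 6.67 and 47.5 in knockout replicates 1 and 3, and 6.29, 14.7 and 20.5 in wildtype. The summed signal of 6 pigment epithelium markers was 1755, 1350 and 1065 in wildtype and 1173 and 1467 in these knockouts, and its part in the Cdh3 values was not tested.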
